A study of Mus musculus with 4 samples.

Results

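Klf2, Klf3, Klf4, Klf6, Klf7, Klf9, Klf10 and Klf13 were followed in sorted bone marrow progenitors of mice with and without the nucleoporin Nup358. These are the 8 genes, of 27998 counted, whose symbols in the deposited gene lists equal the named Krüppel-like factors, and Klf1, the erythroid member of the family, was set apart. The cells were live Lin-Sca1+cKit+ (LSK) cells, the bone marrow fraction that holds haematopoietic stem cells and multipotent progenitors, and their RNA was counted cell by cell at the 3′ ends of transcripts. There were 2 libraries of each genotype. Nup358 fl/fl mice served as controls (wild-type in the labels), and the knockout mice were Nup358 fl/fl with R26-CreERT2, a Cre recombinase that tamoxifen activates. In the study's methods the floxed alleles are shared by both genotypes, CreERT2 is carried by the knockout alone, the mice were adult and the knockout was made by tamoxifen on consecutive days. The study describes tamoxifen treatment of both genotypes elsewhere, and the treatment of the sequenced controls was not stated in the text read here. Cre from this locus acts in all tissues, so the loss was not confined to blood cells. Each library pooled the bone marrow of several mice. The p-values for genotype, over all cells and within classes of cells, measure the spread between these pooled libraries. Those that compare classes, or dividing with other cells, come from models with library as a factor. They measure the spread left once the level of each library is taken out.

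Krüppel-like factors are zinc finger transcription factors that bind GC boxes and CACCC boxes in promoters. Some activate and some repress, Klf3 through the CtBP corepressors and Klf9, Klf10 and Klf13 through Sin3a. In blood, Klf2 is known for keeping lymphocytes quiescent and for driving the homing gene S1pr1, Klf4 for monocyte differentiation, and several members are induced within minutes to hours by serum, stress, glucocorticoids or TGF-beta.

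The members lie on 8 different chromosomes of the mouse build GRCm38, in the GENCODE annotation of that build. Klf2 is at chr8:72319033-72321656 on the plus strand, Klf6 at chr13:5861482-5870394 on the plus strand and Klf9 at chr19:23141226-23168134 on the plus strand. Klf4 is at chr4:55527143-55532466 on the minus strand and Klf10 at chr15:38291463-38300706 on the minus strand. Klf3 (chr5:64803388-64832901, plus strand), Klf7 (chr1:64029447-64122282, minus strand) and Klf13 (chr7:63886351-63938915, minus strand) overlap other annotated genes. C230096K16Rik overlaps Klf3 on the same strand, Gm20033 overlaps it on the other strand, and Gm26649, Gm13748, Gm27252 and E030018B13Rik overlap Klf7 or Klf13 on the other strand. The microRNA genes Mir6899 and Mir1192 overlap Klf7 and Klf9 on the same strand. Whether any of these overlapping genes was among those counted, or affected the UMIs of Klf3, Klf7 or Klf9, was not tested.

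RefSeq promoters on GRCm38.p6 were matched by symbol for 7 of the 8 members (Klf2, Klf3, Klf4, Klf6, Klf7, Klf9 and Klf13), and the 250 bases before the annotated start were searched on both strands. The sequences of Klf2, Klf6 and Klf9 are shown because these 3 genes carried most of the differences described below. Capitals mark a MEF2 box in Klf2 (chr8:72318812-72319061, plus strand), CCAAT boxes in Klf6 (chr13:5861239-5861488, plus strand) and an AP-1 motif in Klf9 (chr19:23140976-23141225, plus strand). The RefSeq starts of Klf2 and Klf6 lie downstream of the GENCODE starts given above.
Klf2: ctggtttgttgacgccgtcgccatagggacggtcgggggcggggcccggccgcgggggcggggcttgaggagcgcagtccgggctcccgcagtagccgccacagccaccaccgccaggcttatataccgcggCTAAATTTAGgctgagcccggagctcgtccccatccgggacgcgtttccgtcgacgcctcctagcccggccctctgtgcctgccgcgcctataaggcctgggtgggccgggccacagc
Klf6: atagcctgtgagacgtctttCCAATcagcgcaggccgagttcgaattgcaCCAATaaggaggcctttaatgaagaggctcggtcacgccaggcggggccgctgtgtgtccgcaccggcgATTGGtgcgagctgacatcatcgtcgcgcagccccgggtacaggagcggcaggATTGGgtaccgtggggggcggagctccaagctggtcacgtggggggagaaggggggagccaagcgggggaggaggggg
Klf9: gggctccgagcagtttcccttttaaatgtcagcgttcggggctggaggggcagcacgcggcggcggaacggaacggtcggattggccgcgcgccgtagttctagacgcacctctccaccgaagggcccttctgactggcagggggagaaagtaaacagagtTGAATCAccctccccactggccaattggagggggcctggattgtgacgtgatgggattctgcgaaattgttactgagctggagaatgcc
In Klf2, the MEF2 box lay 118 to 109 bases before the start, and a MEF2 box was held by 0.508% of the 32851 promoters of the same length. MEF2 factors are the known activators of Klf2 downstream of the kinase Mapk7. The AP-1 motif (TGANTCA) of Klf9 lay 89 to 83 bases before the start, overlapped a CACCC box by 2 bases, and was held by 6.75% of promoters. AP-1 is the dimer of Fos and Jun proteins. Of the 7 promoters, those of Klf6 (4 copies), Klf9 (3) and Klf13 (2) held a CCAAT box (CCAAT), as did 33.8% of all promoters. Copies per promoter were not counted over all promoters. The family's own binding motifs were common in the set and common everywhere. A GC box (GGGCGG) was present in 6 of the 7 promoters and in 32.7% of all promoters, with 6 copies in Klf3 and 4 in Klf4, and a CACCC box (CACCC) in 5 of the 7 and in 52.0% of all. No cyclic AMP response element (TGACGTCA, 1.55% of all promoters), CArG box (1.47%) or glucocorticoid response element (0.00913%) was found in the 7 windows.

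Of 25242 deposited barcodes, 10936 (43.3%) repeated a barcode of another library in which it held 3 or more times the UMIs, 81.8% of barcodes in control replicate 2 and 65.3% in knockout replicate 1 against 14.8% and 18.8% in the other two. They held 1.61% to 24.6% of the UMIs and were left out. The 14041 cells kept (7830 and 1200 control, 1589 and 3422 knockout) held 18846887 to 59033602 UMIs per library, and the median per cell was 6251 and 13175.5 in control against 17707 and 14398.5 in knockout. The sort genes were present in each library, with Kit at 72.6 to 106 and Ly6a at 133 to 311 CPM (the usual count-per-library-total unit, here from UMIs, with totals scaled by edgeR's trimmed mean of M-values). The targeted gene Ranbp2, which encodes Nup358, was counted at 127 and 104 CPM in control and 121 and 125 CPM in knockout. The deletion removes an exon far from the counted 3′ end, so these counts do not check the labels. Neutrophil markers summed to 4680 to 7046 CPM in control and 682 to 1140 in knockout (7 of 7 genes without overlap), pro-B markers to 5.59 to 13.4 against 49.7 to 284 (7 of 7) and plasma cell markers to 124 to 291 against 443 to 652 (5 of 7), so the libraries differed in cell make-up as well as in genotype.

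Across all LSK cells, Klf6 and Klf9 were lower in knockout libraries, 2.45-fold and 2.94-fold, and Klf2 lay 1.92-fold lower without passing the adjusted threshold. Klf6, a stress- and serum-inducible activator, was the most abundant member. It stood at 227 and 187 CPM in the control libraries and at 77.9 and 91.1 CPM in the knockout libraries, a log2 difference of -1.29 (SE 0.17, adjusted p = 0.0160, quasi-likelihood test of edgeR, adjusted over all genes by Benjamini-Hochberg, as for each adjusted p below). Klf9, which glucocorticoid and thyroid hormone induce, was at 57.8 and 59.6 CPM in control and at 19.2 and 20.8 CPM in knockout (log2 -1.56, SE 0.14, adjusted p = 0.00675). For both genes the groups were wide apart relative to the spread within them. These were 2 of 8 members called, against 3.44% of the 13779 genes tested, and both were called under each of the 13 alternatives tried.

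Klf2, the lymphocyte and endothelial quiescence factor, was counted at 103 and 113 CPM in control and at 47.0 and 65.6 CPM in knockout. Both knockout libraries lay below both controls, and the adjusted p of 0.05002 (log2 -0.94, SE 0.19) fell on the far side of the threshold. Over the alternatives its adjusted p ran from 2.67e-05 to 0.314, and it was called in 11 of 13, with the exceptions of another scaling and of the fit without knockout replicate 1 (adjusted p = 0.314). Klf13, known as a regulator of the chemokine Ccl5 in T cells, was at 62.6 and 59.4 CPM against 43.1 and 42.5 CPM (log2 -0.51, SE 0.13, adjusted p = 0.0851). Its adjusted p was lower when either control was left out, but a fit with 1 control library holds no spread between controls.

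Klf10, first described as a TGF-beta-induced early gene, went the other way. Its level was 14.7 and 20.4 CPM in control and 29.2 and 28.3 CPM in knockout, 1.65-fold higher (log2 0.72, SE 0.19, adjusted p = 0.0846). The 2 control libraries differed more from each other than the 2 knockout libraries did. The adjusted p of Klf10 was lower in fits that left out either control, but those fits hold no spread between controls. Klf3, the CtBP-dependent repressor, was at 23.0 and 22.0 CPM against 18.9 and 18.5 CPM (log2 -0.27, adjusted p = 0.321). Klf4 was at 21.6 and 20.4 CPM against 16.2 and 18.6 CPM (log2 -0.27, adjusted p = 0.348). Klf7, a widely expressed member, had overlapping groups at 10.1 and 9.70 CPM against 10.9 and 9.27 CPM (log2 0.02, adjusted p = 0.954). In all, both knockout libraries lay below both controls for 6 of 8 members, where 27.4% of genes did, and above them for Klf10, where 26.6% of genes did.

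**Figure D1:**
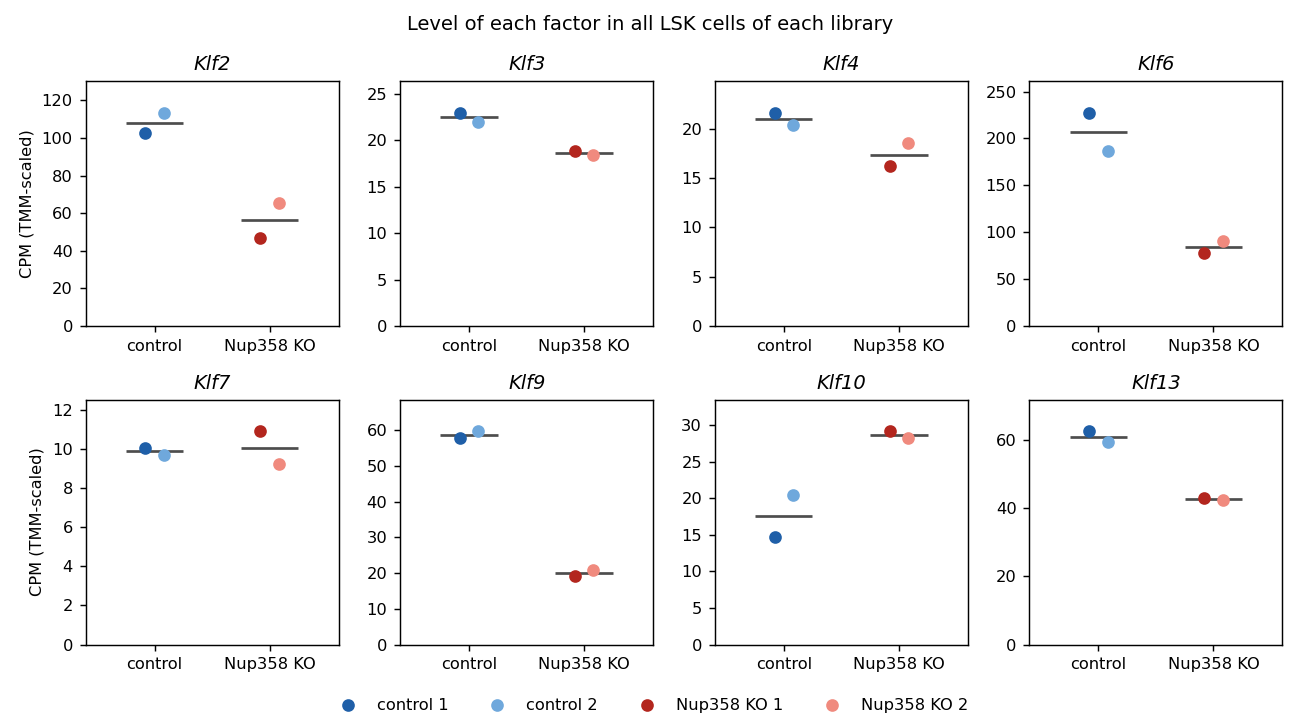
Level of each member in CPM in all LSK cells, with 1 point for each of the 2 control and 2 knockout libraries. Klf9 sits at 57.8 and 59.6 CPM in control and at 19.2 and 20.8 in knockout, and Klf10 is the member with both knockout libraries above both controls.

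Progenitor types were told apart by marker genes that include no Krüppel-like factor, in cells thinned to 2500 UMIs. The 6 classes with at least 20 cells in each library were ungated cells with no marker call (3758, 712, 1070 and 2348 cells in control replicates 1 and 2 and knockout replicates 1 and 2), stem (310, 98, 75 and 182), neutrophil-primed (2201, 171, 82 and 73), lymphoid-primed (257, 112, 51 and 161), megakaryocyte-primed (210, 27, 27 and 86) and erythroid-primed (165, 24, 26 and 54). Neutrophil-primed cells were 30.5% and 14.4% of the control cells deep enough to be thinned, ungated cells included, and 5.56% and 2.30% of such knockout cells. Levels were compared between genotypes inside each class.

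Within the classes, 13 of 48 pairs of member and class were called and each of the 13 was lower in knockout. Klf6 and Klf9 gave 5 each and Klf2 gave 3. The share of all genes called was 4.13% in ungated cells, 3.05% in neutrophil-primed, 0.405% in megakaryocyte-primed, 0.884% in erythroid-primed, 2.06% in stem and 2.66% in lymphoid-primed cells. The erythroid-primed class, the smallest in number of cells, gave none of the 13.

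Of the cells in the stem class, 91.0% held a UMI of Hlf after thinning, 64.5% of Mecom, 44.7% of Mllt3 and 23.6% of Procr. Fgd5, Ctnnal1 and Hoxb5 were held by 11.1%, 6.62% and 3.61%. Klf6 in this class was at 453 and 399 CPM in control and at 159.7 and 112 CPM in knockout. It was 3.27-fold lower (log2 -1.71, SE 0.23, adjusted p = 0.00300, edgeR). Klf2 stood at 228 and 374 CPM against 119.6 and 104 CPM (log2 -1.48, SE 0.25, adjusted p = 0.0106). Klf9 was counted at 69.6 and 134 CPM against 32.6 CPM in both knockout libraries (log2 -1.66, SE 0.30, adjusted p = 0.0171). The controls varied most for Klf9, and even the lower of them was above both knockout libraries. The other 5 members did not pass. Klf4 was at 57.9 and 39.95 CPM against 27.6 and 24.2 CPM (log2 -1.004, adjusted p = 0.0690), Klf13 at 69.6 and 83.8 against 46.8 and 45.1 (adjusted p = 0.0864), and Klf10 at 20.3 and 22.4 against 39.3 and 41.0 (adjusted p = 0.0898). Klf10 was the member of the stem class whose knockout libraries lay above the controls, and the other 7 lay below.

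The stem classes of the genotypes were not alike in division. Markers of dividing cells summed to 471 to 841 CPM in control and 1134 to 1263 CPM in knockout stem cells, with 7 of 7 genes higher, and the dividing share of the class was 20.3% and 5.10% against 25.3% and 36.3%. The gate's own markers summed to 1002 to 1147 CPM in control and 709 to 828 CPM in knockout stem cells, with 4 of 7 genes lower and 1 higher, and 158 of 310, 36 of 98, 33 of 75 and 119 of 182 cells held 3 marker UMIs, the fewest the gate takes. The part of division and of marker level in the stem differences was not tested. With a gate that needed 1 more marker, Klf6 stayed called in this class, and Klf2 (log2 -1.34, adjusted p = 0.110) and Klf9 (log2 -1.90, adjusted p = 0.0897) did not.

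In ungated cells, the largest class, Klf2 was at 112 and 124 CPM in control and at 30.9 and 50.7 CPM in knockout (log2 -1.51, SE 0.24, adjusted p = 0.0266). Klf6 was at 257 and 221 CPM against 68.9 and 86.1 CPM (log2 -1.61, SE 0.18, adjusted p = 0.0127), and Klf9 at 51.8 and 57.9 CPM against 18.9 and 20.7 CPM (log2 -1.45, SE 0.14, adjusted p = 0.0105). Each of the 3 genes had groups far apart. Without knockout replicate 1 none of them passed in this class, with adjusted p of 0.0969 for Klf2, 0.0555 for Klf6 and 0.0577 for Klf9. Median depth per ungated cell was 5521 and 12848.5 UMIs in control against 19796 and 15383.5 in knockout.

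Of neutrophil-primed cells, 100% held a UMI of Prtn3 after thinning, 98.1% of Ctsg, 76.5% of Elane and 70.3% of Ms4a3. Hp, Cebpe and Fcnb were held by 41.4%, 9.77% and 0.435%. These cells held less Klf9 in knockout, at 63.6 and 63.2 CPM in control against 18.0 and 27.6 CPM (log2 -1.48, SE 0.23, adjusted p = 0.00499). Klf6 was at 157 and 96.9 CPM against 43.8 and 74.4 CPM in this class (log2 -1.11, SE 0.27, adjusted p = 0.0475), a call that was lost with all deposited barcodes kept (0.0586), another scaling (0.0546), a stricter gate (0.0776) and without knockout replicate 1 (0.376). Without that library Klf9 was not called either (adjusted p = 0.111). Klf4 was at 15.6 and 16.6 CPM against 6.44 and 7.90 CPM, the last pair resting on 15 and 12 UMIs (log2 -1.15, adjusted p = 0.0706). The gate's own markers summed to 15540 to 17760 CPM in control and 5807 to 6444 CPM in knockout neutrophil-primed cells, so cells of this class differed in marker level between genotypes.

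Lymphoid-primed cells were lower in the same 3 members. After thinning, 90.5% of these cells held a UMI of Dntt, 63.3% of Lsp1, 40.6% of Notch1 and 7.75% of Il7r. Il12a, Gpr183 and Rag1 were held by 30.5%, 0.688% and 0.344%. Klf2 was at 123 and 108 CPM in control and at 43.0 and 56.2 CPM in knockout (log2 -1.20, SE 0.22, adjusted p = 0.00501). Klf6 was at 209.9 and 119 CPM against 51.5 and 58.9 CPM (log2 -1.57, SE 0.25, adjusted p = 0.00132). For Klf9 the 43.5 and 32.5 CPM of control stood against 7.49 and 12.1 CPM in knockout, which rest on 8 and 31 UMIs (log2 -1.86, SE 0.31, adjusted p = 0.00284). A stricter gate took the calls of Klf2 (0.110) and Klf9 (0.203), DESeq2 that of Klf9 (0.0611), and leaving out knockout replicate 1 that of Klf2 (0.0557).

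Of megakaryocyte-primed cells, 68.3% held a UMI of Itga2b after thinning and 60.6% of Pf4. Gp1bb, Gp9, Gp5, Treml1 and Ppbp were held by 37.7%, 30.3%, 24.9%, 22.3% and 0.286%. In control replicates 1 and 2 and knockout replicates 1 and 2, 59 of 210, 14 of 27, 17 of 27 and 40 of 86 cells held 2 marker UMIs. This was the fewest the gate takes. These cells held Klf6 at 312 and 277 CPM in control and at 105 and 106 CPM in knockout (log2 -1.51, SE 0.21, adjusted p = 0.00163). In this class Klf9 was at 64.5 and 76.0 CPM against 23.1 and 18.6 CPM, from 11 and 29 UMIs in knockout (log2 -1.79, SE 0.30, adjusted p = 0.00710). The Klf9 call did not hold with DESeq2 (0.322), with a stricter gate (0.624) or without knockout replicate 2 (0.126). Of erythroid-primed cells, 77.0% held a UMI of Blvrb after thinning, 71.7% of Car1, 38.3% of Gata1 and 16.7% of Epor. Ermap, Mfsd2b and Rhd were held by 29.7%, 22.3% and 11.2%. Erythroid-primed cells had Klf6 at 161 and 126 CPM against 64.7 and 88.4 CPM (log2 -0.93, adjusted p = 0.122). Klf2 there was at 73.1 and 52.3 CPM against 6.63 and 32.8 CPM, the lowest from 4 UMIs (log2 -1.55, adjusted p = 0.141), and Klf3, a known target of Klf1, at 59.9 and 30.8 CPM against 18.2 and 25.1 CPM (log2 -1.19, adjusted p = 0.186). Klf1 in these cells was at 169.5 and 138.5 CPM in control and at 73.0 and 88.4 CPM in knockout. The markers of the erythroid gate summed to 3884 to 3950 CPM in control and 1583 to 2531 CPM in knockout within the class (5 of 7 genes lower), those of the megakaryocyte gate to 1709 to 2312 against 1347 to 1576 CPM within theirs (4 of 7 lower), and their part in these values was not tested.

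Over the 6 classes, both knockout libraries lay below both controls in 6 for Klf6 and Klf9, in 5 for Klf2 and Klf13, in 4 for Klf3 and Klf4 and in 3 for Klf7, and in none for Klf10. Klf10 lay above both controls in 3 classes, with log2 differences from 0.27 to 0.96 in all 6 and a lowest adjusted p of 0.0740 (neutrophil-primed, 10.3 and 11.8 CPM against 20.6 and 21.1 CPM). Klf13 was below 0 in all 6, from -0.78 to -0.31, with a lowest adjusted p of 0.0560 in ungated cells (63.9 and 62.0 CPM against 41.9 and 41.1 CPM). By class, 7 members lay below and 1 above in ungated cells (30.4% and 27.9% of all genes), 6 and 1 in neutrophil-primed (28.0% and 22.0%), 4 and 1 in megakaryocyte-primed (18.2% and 20.4%), 5 and 1 in erythroid-primed (19.2% and 20.9%), 7 and 1 in stem (22.6% and 29.4%) and 4 and 0 in lymphoid-primed cells (23.1% and 23.7%). The member above was Klf10 in ungated, neutrophil-primed and stem cells. It was Klf7 in megakaryocyte-primed cells and Klf4, at low counts, in erythroid-primed cells, and neither was called.

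**Figure D2:**
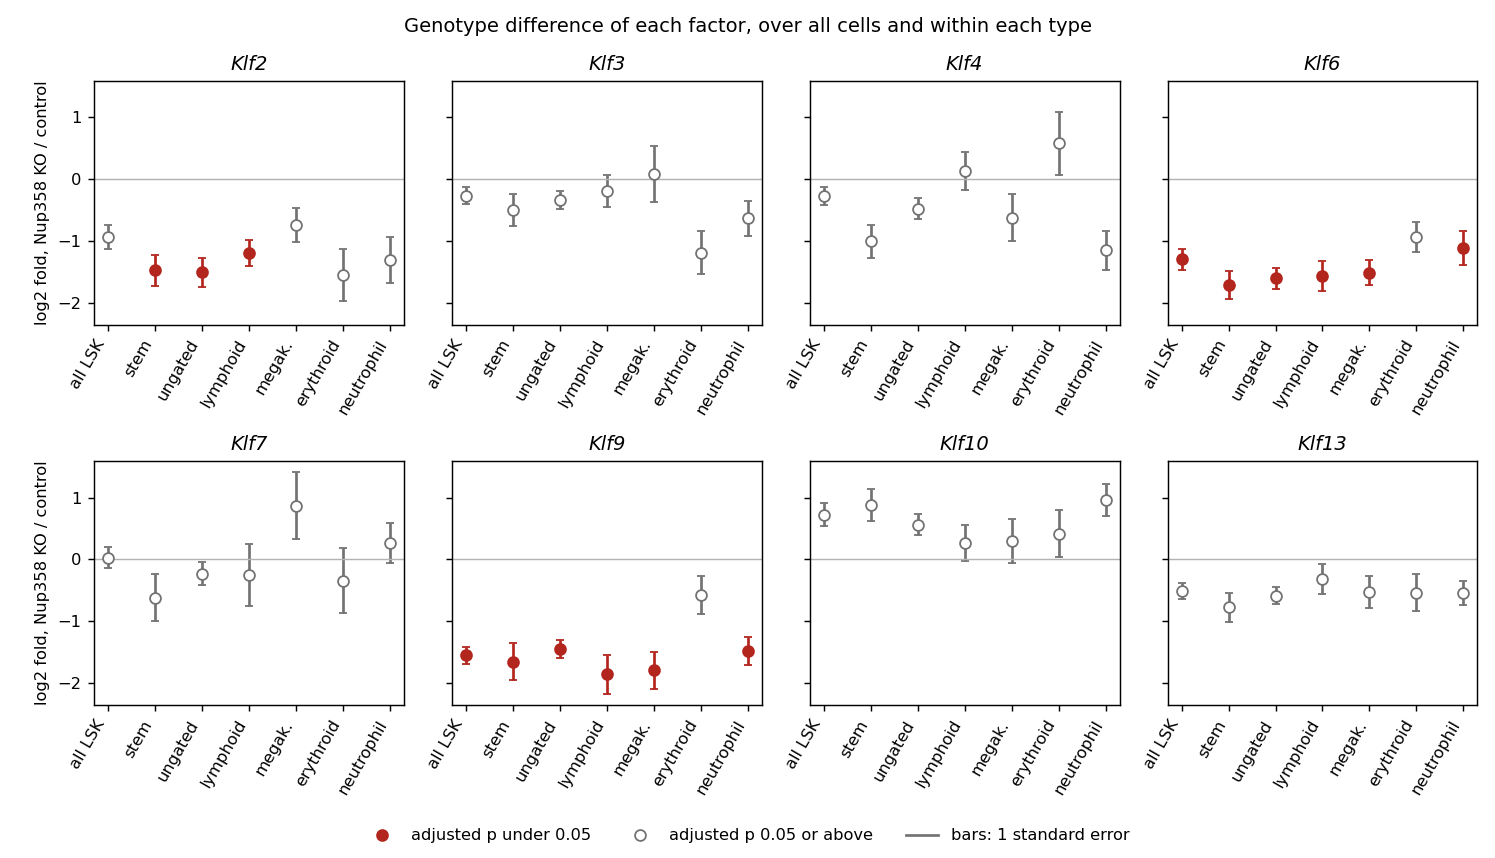
Log2 difference of knockout against control for each of the 8 members, first over all LSK cells and then in each of the 6 classes. Bars are 1 SE, and filled points were called at an adjusted p under 0.05. Over all LSK cells the filled points are Klf6 and Klf9. The 13 filled points of the 6 classes all lie below 0 and belong to Klf2, Klf6 and Klf9, and Klf10 lies above 0 in each class.

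The size of the genotype difference was compared between each class and ungated cells in a single model. None of the 40 pairs was called by edgeR, 7 had an unadjusted p under 0.05, and DESeq2 called 0. The lowest adjusted p was 0.109, for Klf6 in erythroid-primed cells, whose difference was 0.81 closer to 0 on the log2 scale. Of all genes, 2.71% were called in neutrophil-primed, 0.00954% in megakaryocyte-primed, 1.83% in erythroid-primed, 0% in stem and 0.0668% in lymphoid-primed cells. A difference in call between classes, such as Klf2 in stem and not in megakaryocyte-primed cells, is thus not shown to be a difference in size.

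Apart from genotype, the members differed by class when each class was set against the ungated cells of the same libraries. Of 48 pairs, 14 were called, 8 higher and 6 lower. The stem class was higher for 6 of 8 members, where 19.0% of all genes were called, 979 higher and 980 lower of 10291, and the median over all genes was 0.02. Klf2 led with 2.69-fold (log2 1.43, SE 0.21, adjusted p = 3.83e-05), followed by Klf4 (0.97, SE 0.19, adjusted p = 8.41e-04), Klf6 (0.86, SE 0.17, adjusted p = 7.93e-04) and Klf9 (0.81, SE 0.15, adjusted p = 3.66e-04). The smaller differences of Klf3 (0.45, adjusted p = 0.0296) and Klf10 (0.36, adjusted p = 0.0277) in stem cells were each lost on leaving out libraries, Klf3 with any of the 4 (0.0525 to 0.102) and Klf10 with 3 of them (0.0960 to 0.231). Klf2 exceeded its ungated level in every library, at 228 against 112, 374 against 124, 119.6 against 30.9 and 104 against 50.7 CPM. Immediate early genes, listed further below, were also higher in stem cells, with 12 of 16 tested called and a median of 0.60 against 0.63 for the members. Fewer stem than ungated cells were dividing, 20.3% and 5.10% against 37.7% and 17.7% in control. In knockout these shares were 25.3% and 36.3% against 40.8% and 53.4%. The part of division in these class differences was not tested.

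Neutrophil-primed cells were lower than ungated cells for 5 members, in a contrast that called 48.0% of all genes. These were Klf2 (log2 -1.11, adjusted p = 2.51e-04), Klf10 (-0.76, adjusted p = 5.87e-07), Klf6 (-0.75, adjusted p = 6.67e-04), Klf4 (-0.65, adjusted p = 0.00331) and Klf3 (-0.48, adjusted p = 0.00156). Klf9 did not pass there (0.18, adjusted p = 0.265). Of the 10291 genes tested, 2373 were called higher and 2564 lower. Klf4 was not called with DESeq2 (adjusted p = 0.0575).

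Klf3 had a pattern of its own kind, higher in lymphoid-primed (log2 0.89, SE 0.13, adjusted p = 1.08e-05) and erythroid-primed cells (0.89, SE 0.16, adjusted p = 6.44e-05), where 7.19% and 26.5% of all genes were called. In lymphoid-primed cells it was counted at 41.7, 36.7, 38.4 and 31.99 CPM in control replicates 1 and 2 and knockout replicates 1 and 2, against 23.5, 20.9, 17.6 and 17.4 CPM in ungated cells. All 4 libraries were high, whichever the genotype. In erythroid-primed cells its 59.9 CPM in control replicate 1 stood out from 30.8, 18.2 and 25.1 CPM, and without that library the difference was 0.43 (adjusted p = 0.162). Klf9 was lower in lymphoid-primed cells (log2 -0.64, adjusted p = 0.0186), a call lost without control replicate 2 (0.161), knockout replicate 1 (0.0965) or knockout replicate 2 (0.112). No member was called in megakaryocyte-primed or in monocyte and dendritic-primed cells, where 11.0% and 7.40% of all genes were, and Klf7 and Klf13 were called in no class. Monocyte and dendritic-primed cells were too few in control replicate 2 (13 cells), so that class rests on 3 libraries. Klf13 was at 70.7 CPM there in control replicate 1 and at 59.8 and 142 CPM in knockout, the last from 31 UMIs in 20 cells (log2 0.54, adjusted p = 0.0810).

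**Figure D3:**
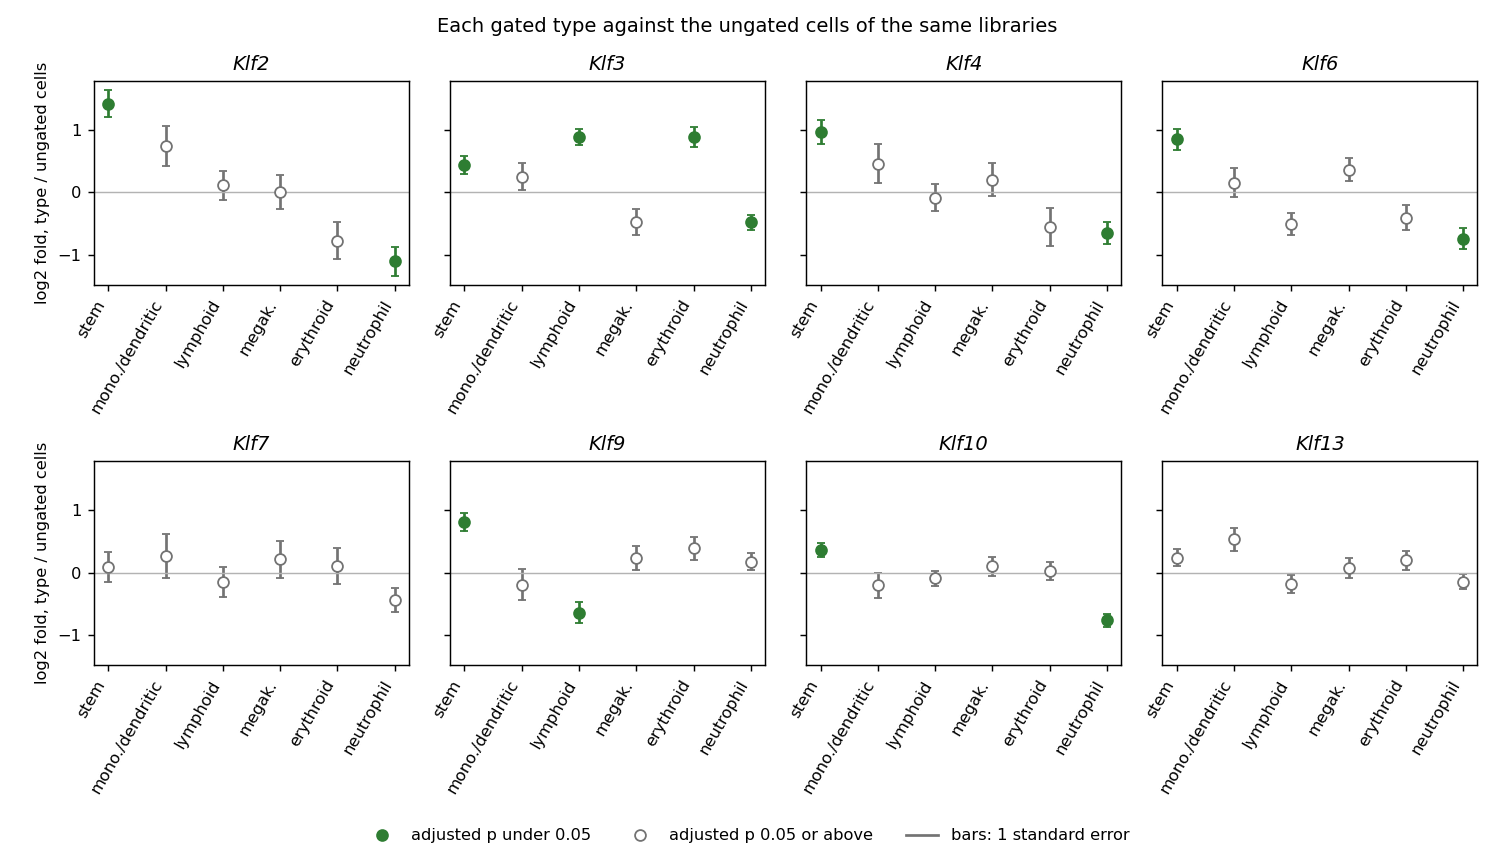
Log2 difference of each class against the ungated cells of the same libraries for the 8 members, with bars of 1 SE and filled points for called pairs. Stem cells lie above 0 for all 8 members with 6 called, where 19.0% of all genes were. Neutrophil-primed cells lie below 0 for 7 with 5 called, where 48.0% of all genes were. Klf3 is called higher in lymphoid-primed and erythroid-primed cells, and in the latter control replicate 1 stood out from the other libraries.

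Ordered by the mean over the 4 libraries, the stem class was highest of the 6 classes for 6 members. It stood over the next class in all 4 libraries for Klf2, Klf4 and Klf6, and in 2 of 4 for Klf9, Klf10 and Klf13. The share of all genes with their highest mean in the stem class was not counted. For Klf2 the order was stem (206 ± 125 CPM, SD, n = 4), lymphoid-primed (82.4 ± 38.8), ungated (79.2 ± 45.4), megakaryocyte-primed (68.5 ± 27.2), erythroid-primed (41.2 ± 28.3) and neutrophil-primed (34.4 ± 22.7). Klf6 ran from stem (281 ± 170.0) through megakaryocyte-primed (199.9 ± 109.8), ungated (158 ± 94.6) and erythroid-primed (110.0 ± 42.3) to lymphoid-primed (109.8 ± 73.3) and neutrophil-primed cells (93.0 ± 47.9). Klf4 and Klf10 were highest in stem and next in megakaryocyte-primed cells, and Klf9 and Klf13 in stem and next in erythroid-primed cells. Klf3 was highest in lymphoid-primed (37.2 ± 4.06) and Klf7 in megakaryocyte-primed cells (12.1 ± 3.84). The SDs span both genotypes. Of 40 neighbouring pairs in these orders, 1 differed by more than its SDs, Klf3 in ungated (19.8 ± 2.93) over megakaryocyte-primed cells (14.5 ± 0.876), and 11 kept their order in all 4 libraries.

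**Figure D4:**
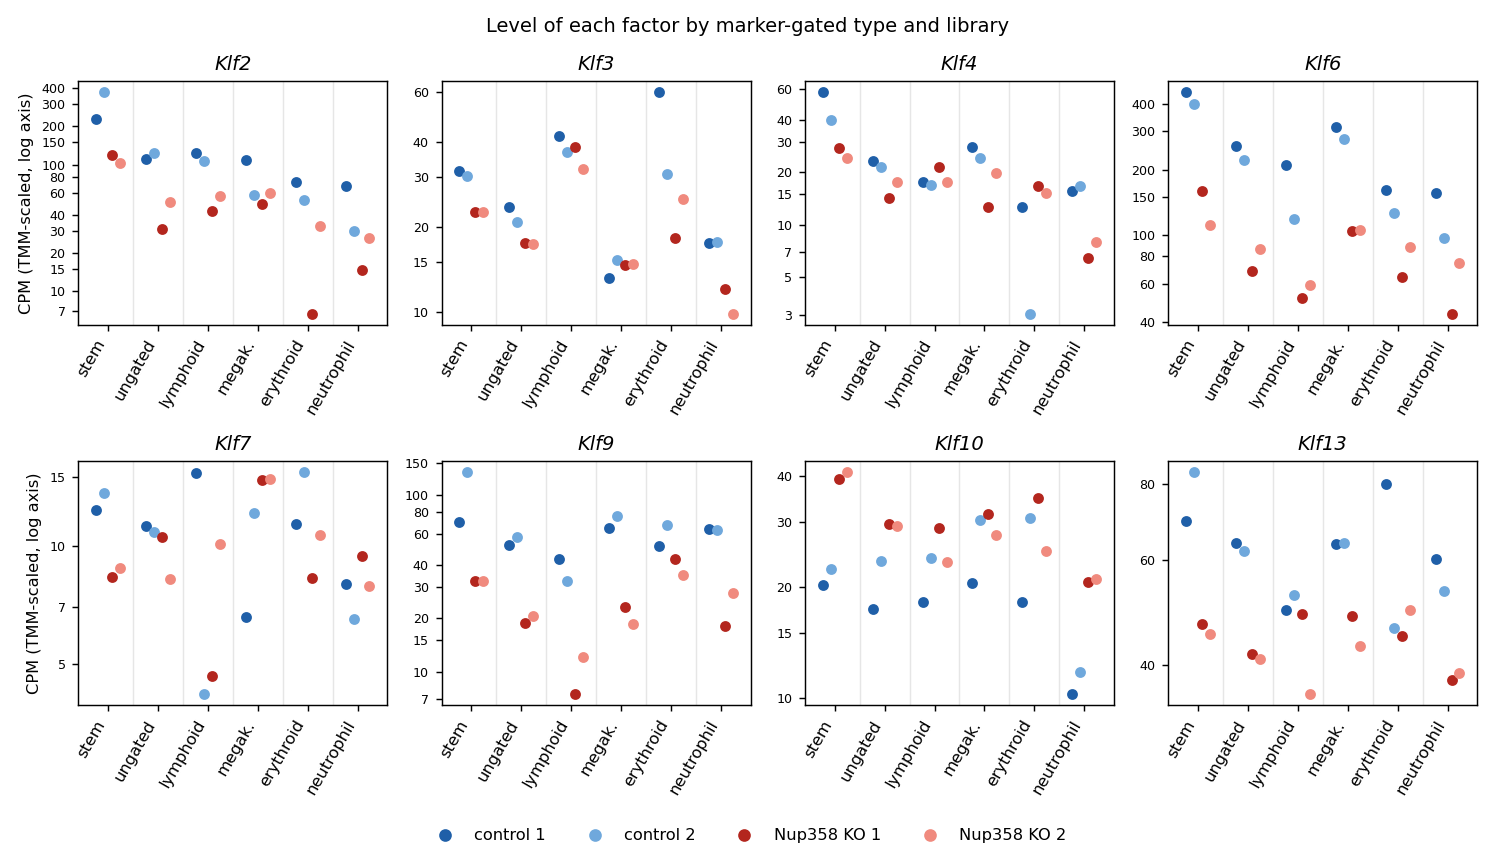
Level of each member in CPM (log axis) by class, with 1 point per library, coloured to tell the genotypes apart. For Klf6 and Klf9 the knockout points lie under the control points in the 6 classes with all 4 libraries. Among those 6 classes the stem class has the highest mean for 6 of the 8 members. It stands over the next class in all 4 libraries for Klf2, Klf4 and Klf6, and in 2 of 4 for Klf9, Klf10 and Klf13.

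Ungated cells were also split by division, with 1418, 126, 437 and 1253 dividing cells against 2340, 586, 633 and 1095 others in control replicates 1 and 2 and knockout replicates 1 and 2. Klf10 was lower in dividing cells, at 15.4, 19.8, 26.2 and 27.2 CPM against 19.7, 24.9, 34.7 and 35.2 CPM in the others. All 4 libraries showed this direction, and the log2 difference was -0.37 (SE 0.07, adjusted p = 0.0226). Klf10 was the 1 member of 8 called, against 7.96% of all genes, and the call was lost without control replicate 1 (0.110), knockout replicate 1 (0.0869) or knockout replicate 2 (0.0836). Klf2 did not pass (log2 -0.39, adjusted p = 0.151).

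Klf6 was split by division differently in the genotypes. In control libraries it was at 322 and 247 CPM in other cells and at 194 and 149 CPM in dividing cells. In knockout libraries it was at 67.0 and 68.9 CPM in other cells and at 73.9 and 101 CPM in dividing cells. The controls were thus lower in dividing cells and the knockouts higher. A term for genotype by division, added after these levels were seen, was 1.10 for Klf6 on the log2 scale (SE 0.10, adjusted p = 2.00e-06), so the genotype difference was smaller in dividing than in other cells. Klf4 was the other member called (0.51, SE 0.15, adjusted p = 0.0396), with 26.8 and 23.4 CPM in other and 20.2 and 15.8 CPM in dividing control cells, and 14.4 and 17.5 against 14.8 and 18.4 CPM in knockout. Its call was lost without control replicate 1 (0.1602), knockout replicate 1 (0.154) or knockout replicate 2 (0.274). These were 2 of 8 members, against 8.65% of all genes, and Klf9 (0.46, adjusted p = 0.0505) and Klf2 (0.47, adjusted p = 0.0937) did not pass. Of 18 immediate early genes 12 were called higher in the same term, among them Atf3 (1.29), Nr4a2 (0.96) and Fos (0.69).

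**Figure D5:**
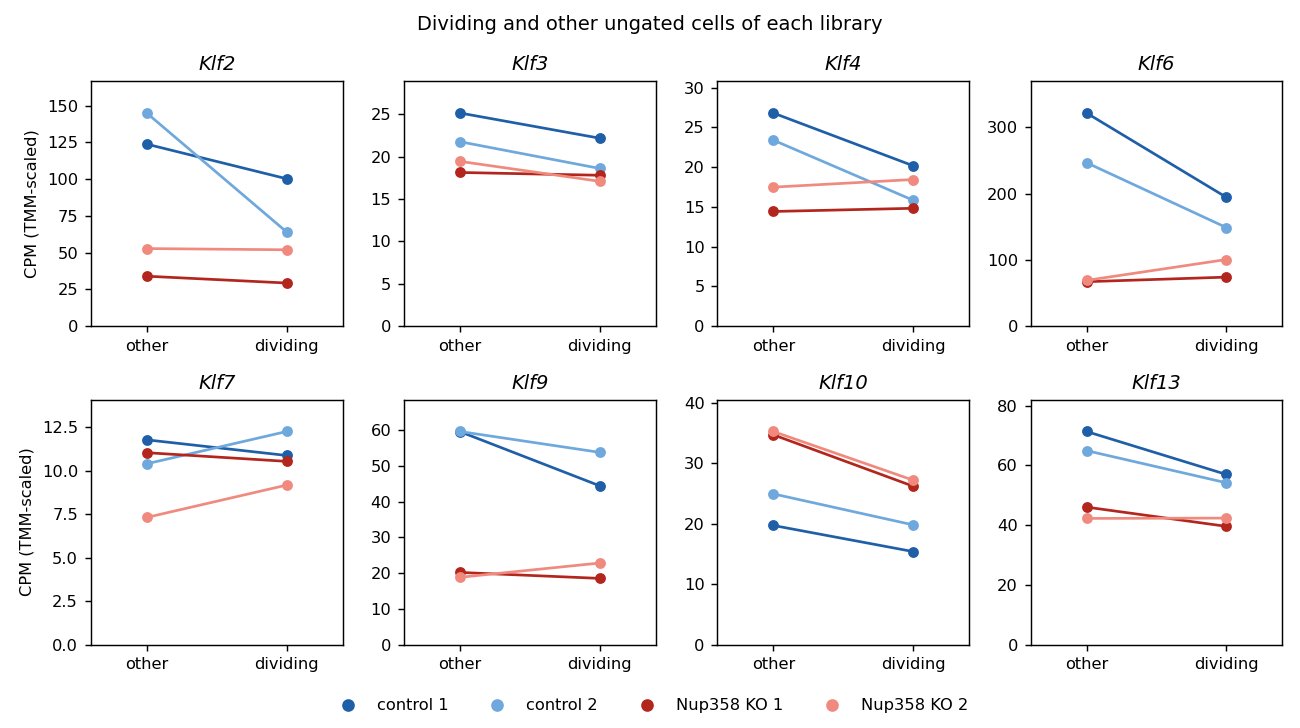
Level of the members in CPM in other and dividing ungated cells, with a line joining the values of each library. Klf6 falls from 322 to 194 and from 247 to 149 CPM in the control libraries and goes from 67.0 to 73.9 and from 68.9 to 101 CPM in the knockout libraries.

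Immediate early genes, a list of 18 that holds no Krüppel-like factor but to which Klf2, Klf4, Klf6 and Klf10 are often added, lay lower in knockout. All 18 had a log2 difference below 0 over all LSK cells, 9 were called, and the median was -1.28 against -0.39 for the 8 members and -0.01 over all genes. Called were Fos (-1.62), Jun (-1.66), Jund (-1.24), Egr1 (-2.23), Egr3 (-4.49), Ier2 (-1.08), Atf3 (-1.97), Nr4a1 (-2.08) and Btg2 (-1.65). The Egr3 value rests on low counts, 51 and 58 UMIs in control and 4 and 3 UMIs in knockout. Fos was at 1033 and 1202 CPM in control and at 309 and 419.9 CPM in knockout. The list's sum was 4460 to 5020 CPM against 1748 to 2038 CPM over all cells, 5166 to 5847 against 1570 to 1956 in ungated cells and 8356 to 9447 against 2192 to 2215 in stem cells. Within classes, 14 of 18 genes tested were called lower in ungated, 14 of 15 in stem, 11 of 15 in lymphoid-primed, 9 of 15 in megakaryocyte-primed, 7 of 16 in neutrophil-primed and 4 of 14 in erythroid-primed cells. Whether the difference in these genes has a part in the member differences was not tested.

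Genes around the family were counted from lists of known roles. Among the other KLF and SP genes 8 of 17 could be tested and none was called, against 3.44% of all genes. Klf11 lay at a log2 difference of 0.50, Klf16 at 0.35 and Sp1 at 0.25. Klf5, Klf8 and Klf11 were counted low, with control means of 1.17, 2.74 and 7.21 CPM. Sp1 and Sp3 stood at 47.0 and 48.3 CPM. The members were chosen with earlier results of these data known, so their calls cannot be weighed against this list. None of 8 upstream regulators of Klf2 or Klf4 was called, with Mef2c at 327 and 396 CPM in control and 269 and 259 CPM in knockout (log2 -0.45, adjusted p = 0.174) and Foxo1, an activator of Klf2, at 5.52 and 6.85 against 8.91 and 10.6 CPM (0.67, adjusted p = 0.113). The 9 cofactors, among them Ctbp1, Sin3a and Hdac3, had a median of 0.02 and no call.

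Targets of Klf2 and Klf4 had a median of -0.38 over all LSK cells with no call among 7. In stem cells S1pr1, the receptor for exit from tissues, was called lower (log2 -1.78, SE 0.33, adjusted p = 0.0174), 1 of 5 targets tested there. Against ungated cells, stem cells were higher in S1pr1 (log2 1.23) and lower in Cd69 (-0.61).

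Glucocorticoid-inducible genes, the class to which Klf9 belongs, had a median of -0.57 with 0 of 6 called over all LSK cells. In stem cells 2 of 6 were called lower, Tsc22d3 (log2 -1.60, adjusted p = 0.0323) and Per1 (-1.12, adjusted p = 0.0444). Fkbp5 of the same list lay above 0 in stem cells (0.81, adjusted p = 0.168) and over all LSK cells, at 31.8 and 29.2 CPM in control and 38.9 and 37.8 CPM in knockout (0.33, adjusted p = 0.229). TGF-beta-inducible genes had a median of -0.49, and Skil, a repressor of SMAD proteins, was the 1 of 5 called, at 47.6 and 71.9 CPM against 22.3 and 23.1 CPM (log2 -1.39, adjusted p = 0.0231). In stem cells Skil (-2.30, adjusted p = 8.56e-04) and Smad7 (-1.18, adjusted p = 0.0176) were called. These genes lay below 0, and Klf10, which TGF-beta also induces, lay above 0 in the same cells.

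Likeness between genes was described by Pearson's r of log2(CPM + 1) over 31 sums of library and class, across 8058 genes. These sums share libraries and depth, so r carries no p. They also mix both genotypes, so r takes in the genotype differences given above as well as differences between classes. Klf6 ran most closely with Gm26532 (0.88), Dusp1 (0.88) and Fos (0.87), and Klf2 with Vamp2 (0.85), Pbxip1 (0.77) and Atf3 (0.76). Klf9 was most like Selenbp1 (0.80) and Rpain (0.79), and Klf13 most like Adrbk2 (0.79), Ptms (0.77) and Cnn2 (0.76). The closest genes were Trim39 (0.79), Mdfic (0.77) and Sft2d2 (0.77) for Klf4, Gch1 (0.73), Rftn1 (0.72) and Dok2 (0.71) for Klf10, and Senp6 (0.72), Spopl (0.72) and Phf3 (0.71) for Klf3. Klf7 had no gene above 0.61 (Ube3c, Itfg2 at 0.61, Tfe3 at 0.57). Between members, r was highest for Klf6 with Klf13 (0.73), Klf2 with Klf6 (0.72), Klf2 with Klf4 (0.68) and Klf6 with Klf9 (0.61), and lowest for Klf9 with Klf10 (-0.26).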

How the data were processed

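The authors sorted LSK cells, prepared 10x Genomics 3′ libraries and counted UMIs per gene and barcode with Cell Ranger 3.1 on mm10 (GRCm38). They deposited whole-number counts of 27998 genes without normalization. Copied barcodes were left out, as were cells with fewer than 200 genes or over 10% mitochondrial UMIs, and doublets were not removed. Types needed 2 of 7 markers and 3 marker UMIs (10 for neutrophil, 2 for megakaryocyte and erythroid) in cells thinned to 2500 UMIs, thresholds set after the marker levels were seen. Dividing cells needed 2 markers and 3 UMIs. All UMIs were then summed per library and type, sums of under 20 cells were dropped, and edgeR 4.0.16 (R 4.3.3) tested them with filterByExpr, TMM and Benjamini-Hochberg adjustment over all genes at 0.05. Genotype was tested over all cells and within types, and type and division with library as a factor. DESeq2 1.42.0 was an alternative.

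The members and lists were chosen with earlier results of these data known. Genes named were the 8 members, the genes of the lists, gate markers and the 3 genes most like each member, apart from a few that are not reported here. In a test on simulated data, 78% of genes changed by log2 1 were found over all LSK cells (13776 genes, 1.66% false calls), 25% within erythroid-primed cells (7839 genes, 4.35%), 97% for stem against ungated cells (9962 genes, 6.64%, above the threshold set) and 100% for dividing against other cells (12215 genes, 2.91%). In that simulation every gene had the same dispersion, and the libraries and classes differed in depth but otherwise in the changed genes alone. The changed genes were drawn from the more abundant ones. The shares found need not hold for genes with a wider spread or lower counts. Depth was 18846887 to 59033602 UMIs per library. Nothing in the labels says whether same-numbered libraries belong together. Python 3.11.15, numpy 2.4.6, pandas 2.3.3 and scipy 1.17.1 were used.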

Additional observations from a re-analysis of the deposited data

Results flagged for a closer look

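The genotype difference of 2 members in ungated cells differed between dividing and other cells by the test of the difference itself. For Klf6 the genotype by division term was 1.098 on the log2 scale, and it was called under each alternative tried, from 0.87 to 1.27. For Klf4 the term was 0.51, lost with DESeq2 (adjusted p = 0.686) and without 3 of the 4 libraries. The term was added after the levels had been seen, and control replicate 2 gave 126 dividing cells to it. No group had enough libraries for a check of single outlying samples.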

How the results depend on the processing

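Over all LSK cells 2 members were called, against 4 with no filter on low counts, 4 with DESeq2, 4 with the replicate block, 5 with the crossed replicate block and 2 to 5 with a library left out (5 without either control). The 13 calls within types became 22 with no filter, 7 with the stricter gate, 17 with the replicate block, 21 with the crossed replicate block and 7 to 26 with a library left out (7 without knockout replicate 1, 26 without control replicate 2). Deviations of same-numbered libraries correlated at -0.12 over 13779 genes, the labels do not pair them, and the crossed pairing was added after the data were seen. Genotype by type gave 0 calls, 1 with no filter and 0 to 2 with a library left out. Division gave 1 call, 2 with no filter and 0 to 1 with a library left out (0 without control replicate 1 or either knockout). Genotype by division gave 2 calls, 4 with no filter, 1 with DESeq2 and 1 to 3 with a library left out (1 without knockout replicate 2). The 14 calls of types against ungated cells stayed between 11 and 20. The Klf7 genotype difference reversed to -0.00901 without control replicate 2 and to -0.0929 without knockout replicate 1, in a range of -0.0929 to 0.142 with a library left out. For the single members tested by comparison, 364 alternative values kept their direction and side of the threshold, 40 lost the threshold and 20 gained it, and the causes were not tested. A lone library left in a genotype was taken to vary like the others. The share of all genes called is not given for these alternative fits. Their counts of calls therefore describe the fits and are not results about the members.

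Low counts limited small types, where Klf2 in erythroid-primed cells of knockout replicate 1 rested on 4 UMIs and Klf4 in control replicate 2 on 1 UMI.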

Other observations

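Levels in small classes are given here as values. Klf10 was at 30.1 and 31.5 CPM in plasma cells of the 2 knockout libraries, which had 45 and 48 such cells against 11 and 5 in control. Klf2 in monocyte and dendritic-primed cells was at 111 CPM in control replicate 1 and at 110.4 and 188 CPM in knockout replicates 1 and 2, from 193, 48 and 41 UMIs. Klf9 in the same cells was at 44.3, 20.7 and 9.16 CPM, the last from 2 UMIs. Against ungated cells neither passed in that class (Klf2 log2 0.75, adjusted p = 0.198, and Klf9 -0.20, adjusted p = 0.773, edgeR).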
